A study of Mus musculus with 10 samples.

Results

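Blood vessels are lined by endothelial cells, and 37 genes that these cells express were followed in 4T1 tumors treated with BC@Z-M + L and in control tumors. The genes were taken by name from a list of endothelial adhesion molecules, receptors, transcription factors, secreted proteins and signaling proteins, by a rule that uses no measured value. All 37 were found among the 34449 genes of the deposited table. Of them 34 had a mean of at least 1 FPKM, a read count scaled to transcript length and to the size of the library, and Ptprb, Sox17 and Vwf lay below it.

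The BC@Z-M + L group had 5 libraries and the control group 5. 4T1 is a mouse triple-negative mammary carcinoma line, grown here as tumors under the skin of BALB/c mice that the series' design text gives as 9 weeks old. BC@Z-M is a zinc 2-methylimidazole (ZIF-8) nanoparticle that carries BN-O, a hypoxia-activated photoactive probe, and CA4P, a vascular disrupting agent. It is coated with membrane of M1-like macrophages, and L stands for near-infrared laser light on the tumor. For the sequenced control tumors the sources used here give only that they did not receive BC@Z-M + L, not whether vehicle or laser light was given, and they give no time of collection. Whether each library came from its own mouse is not given either, so the p-values reflect how libraries vary, which may be technical. Estimated counts summed to between 53446143 and 77510631 per library in the BC@Z-M + L group, against 53411182 to 65263003 in the control group.

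Endothelial cells hold on to each other through VE-cadherin and PECAM1, and new vessels are led by tip cells that make DLL4, ESM1, apelin and angiopoietin-2. Quiescent vessels are kept stable by angiopoietin signaling through TIE2, which angiopoietin-2 can counteract. CA4P binds tubulin and closes tumor vessels by its action on endothelial cells. ETS factors such as ERG and FLI1, which bind DNA with a GGAA core, and the SOX17, SOX18 and SOX7 factors, which bind ACAAT-like sites, set endothelial identity.

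Promoter sequences are shown for Emcn, Tek and Robo4, which varied with the other members across libraries, and for Apln, which did so less closely. RefSeq promoter windows on GRCm38.p6 were matched for 17 of the 37 genes. Printed are the 250 bases before the start of transcription, with AGGAA (an ETS core) and ACAAT (a SOX core) in capitals on either strand, where they read TTCCT and ATTGT.
Emcn, GRCm38.p6 chr3:137340828-137341077 (+ strand): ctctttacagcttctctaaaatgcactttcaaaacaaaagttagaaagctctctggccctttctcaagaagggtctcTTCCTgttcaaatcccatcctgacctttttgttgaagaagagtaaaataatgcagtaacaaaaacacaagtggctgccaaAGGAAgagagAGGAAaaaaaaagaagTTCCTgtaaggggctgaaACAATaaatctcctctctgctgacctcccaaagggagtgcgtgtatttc
Tek, GRCm38.p6 chr4:94739039-94739288 (+ strand): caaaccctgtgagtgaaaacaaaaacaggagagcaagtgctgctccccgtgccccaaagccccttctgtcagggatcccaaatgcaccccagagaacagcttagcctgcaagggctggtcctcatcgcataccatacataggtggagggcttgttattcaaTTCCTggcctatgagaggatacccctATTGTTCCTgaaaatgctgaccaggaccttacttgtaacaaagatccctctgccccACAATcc
Robo4, GRCm38.p6 chr9:37401722-37401971 (+ strand): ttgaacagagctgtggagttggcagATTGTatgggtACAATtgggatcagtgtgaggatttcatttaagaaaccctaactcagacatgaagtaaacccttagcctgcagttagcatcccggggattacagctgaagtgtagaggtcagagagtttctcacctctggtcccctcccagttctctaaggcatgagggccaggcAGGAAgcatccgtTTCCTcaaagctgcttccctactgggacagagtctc
Apln, GRCm38.p6 chrX:48034854-48035103 (− strand): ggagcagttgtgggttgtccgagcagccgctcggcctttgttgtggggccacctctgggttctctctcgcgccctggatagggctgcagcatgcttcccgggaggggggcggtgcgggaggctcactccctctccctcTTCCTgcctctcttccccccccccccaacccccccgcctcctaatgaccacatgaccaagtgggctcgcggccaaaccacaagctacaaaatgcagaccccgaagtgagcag
Emcn held 4 AGGAA and 1 ACAAT, Tek 2 and 2, Robo4 2 and 2, and Apln 1 and none. The first 3 genes tracked the mean of the other members across the 10 libraries (r = 0.92, 0.91 and 0.80), and Apln did so less closely (r = 0.38). AGGAA was in 15 of the 17 matched genes, among them Eng, whose r was 0.27. Whether motif counts go with r was not tested. Over windows of the 250 bases before the start, AGGAA was in 17 of the 21 windows of 17 member genes, beside 60.3% of the 32851 RefSeq windows. Of the longer forms that overlap it, CAGGAA was in 14 member windows, beside 25.7% of all windows, and AGGAAG in 12, beside 29.5%. ACAAT was in 7 of the 21, beside 27.7%. The shortest core GGAA (19 of the 21, beside 93.4%), CCGGAAG (none, beside 6.91%), GATAA (3, beside 22.6%) and TATAAA (2, beside 12.4%) were also searched on both strands. These matches describe letters and not binding.

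Endothelial RNA was present in every library. The general markers Pecam1, which encodes CD31, and Cdh5, which encodes VE-cadherin, were above 0 throughout. The 37 genes together took 0.0613% to 0.0983% of the FPKM total in BC@Z-M + L libraries, against 0.0643% to 0.0801% in control libraries. Ordered by the mean over all libraries, Eng (34.4 FPKM), Apln (28.4 FPKM), Plvap (28.0 FPKM), Podxl (18.5 FPKM) and Ecscr (15.2 FPKM) led, and Ptprb (0.726 FPKM), Sox17 (0.548 FPKM) and Vwf (0.436 FPKM) were last. In these bulk samples, fewer endothelial cells and less RNA per endothelial cell cannot be told apart.

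After BC@Z-M + L no endothelial gene differed from control tumors past the test. On the mean of log2(FPKM + 1), 27 of the 37 were higher and 10 lower after BC@Z-M + L than in control tumors, while 46.2% of all 12802 genes with a mean of at least 1 FPKM were higher. The differences were small. The median over the 34 endothelial genes at that level was 0.03 on the log2 scale, against −0.01 for all genes, and the single differences lay between −0.27 (Esm1) and 0.41 (Aplnr). In limma with Benjamini-Hochberg adjustment over 12802 genes, none of the 34 had an adjusted p under 0.05, and neither did any other gene (0%). The lowest adjusted p of an endothelial gene was 0.997. At an unadjusted limma p under 0.05, 1 endothelial gene was higher (Podxl), beside 0.797% of all genes, and none was lower, beside 1.73%. On the estimated counts edgeR also called none at an adjusted p under 0.05 (0% of 18668 genes) and 1 of 37 at an unadjusted p under 0.05, beside 1.9% of genes that were higher at that level. DESeq2 called none of the 37, beside 0.0182% of 32880 genes at an adjusted p under 0.05. No endothelial gene had every BC@Z-M + L library above every control library, beside 0.133% of all genes, and none had every one below, beside 0.281%.

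**Figure D1:**
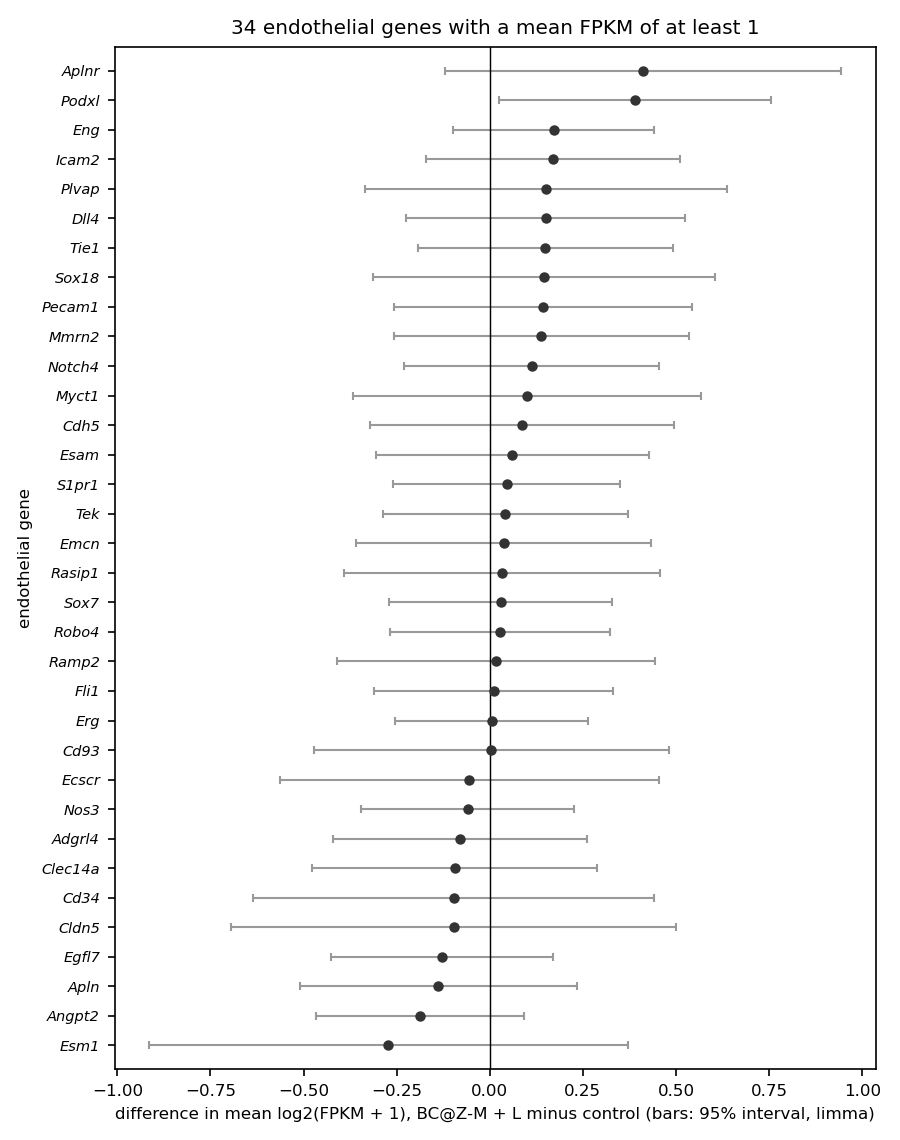
Difference in mean log2(FPKM + 1), BC@Z-M + L minus control, for the 34 endothelial genes with a mean of at least 1 FPKM (points; bars are 95% intervals from limma, 5 libraries a group). The interval of Podxl, 0.03 to 0.76, is the only one that leaves out 0, before adjustment for the number of genes tested.

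The BC@Z-M + L libraries lay farther from each other than the control libraries did. BC@Z-M + L replicates 1 and 2 were high in many endothelial genes, and replicate 4 was low in many. Replicate 1 was above all 5 control libraries in 21 of the 37 genes and replicate 2 in 20. Replicate 4 was below all of them in 20 genes and replicate 5 in 14. Across all 10 libraries, 26 genes had their highest value in BC@Z-M + L replicate 1 or 2, while 20 had their lowest in replicate 4 and 10 in replicate 5. The mean of log2(FPKM + 1) over the 37 genes was 2.64, 2.63, 2.41, 2.01 and 2.17 in BC@Z-M + L replicates 1 to 5, against 2.14, 2.44, 2.26, 2.43 and 2.39 in control replicates 1 to 5. The group means were 2.37 ± 0.28 after BC@Z-M + L and 2.33 ± 0.13 in control tumors (SD, n = 5 each), so that the difference of 0.04 was smaller than either SD.

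**Figure D2:**
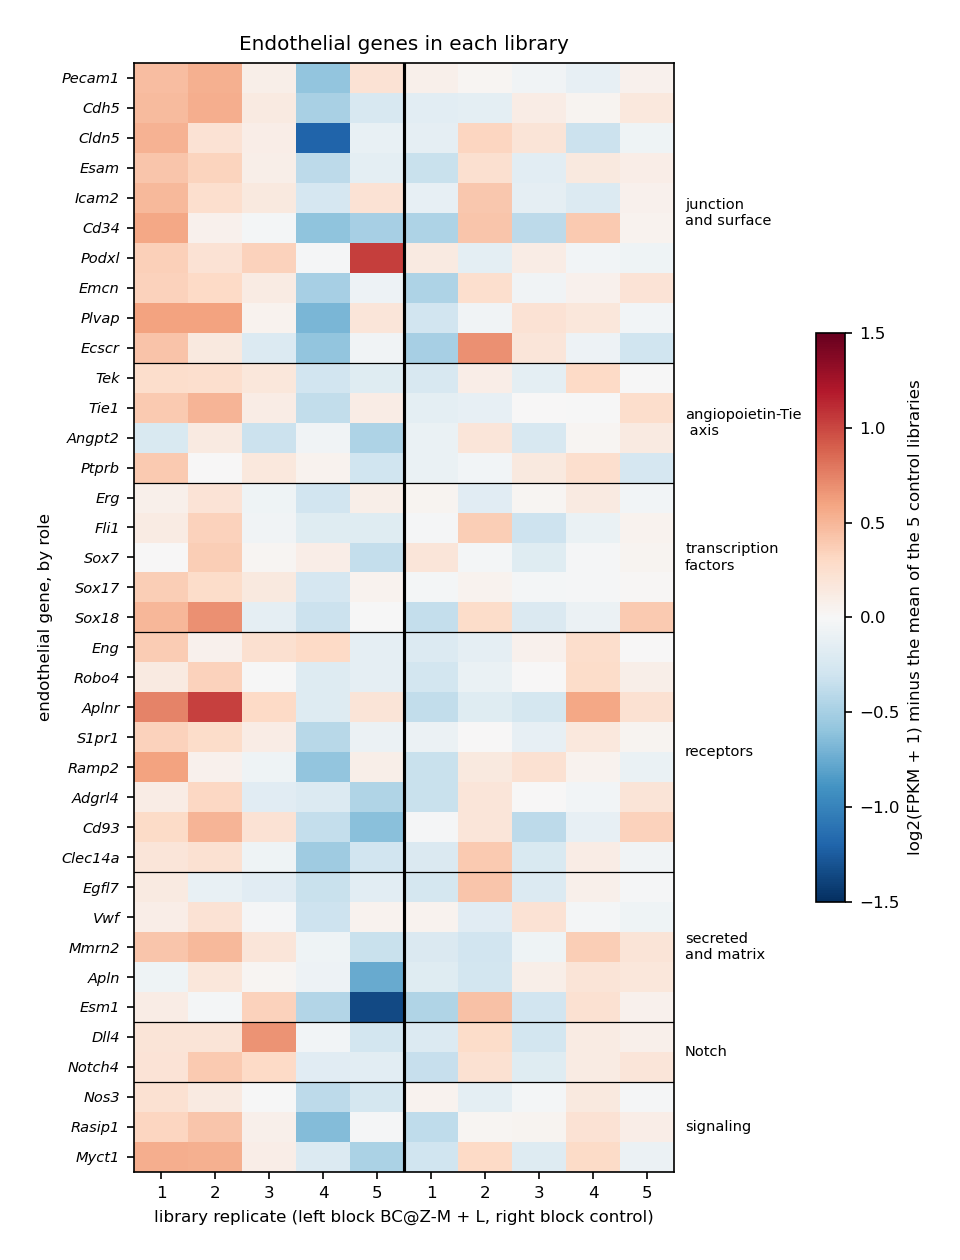
Heat map of the 37 endothelial genes (rows, by role) in the 5 BC@Z-M + L libraries (left) and the 5 control libraries (right), as log2(FPKM + 1) minus the gene's control mean; red is above and blue below it. Columns 1 and 2 of BC@Z-M + L are mostly red and column 4 mostly blue, and replicate 4 had the lowest value of all libraries in 20 genes.

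The SD of log2(FPKM + 1) was larger in the BC@Z-M + L group in 34 of the 37 genes, while it was larger there in 56.5% of all genes tested. The exceptions were Ecscr, Fli1 and Egfl7. The median SD of the 37 was 0.34 after BC@Z-M + L and 0.22 in control tumors, against 0.21 and 0.19 over all genes. For the mean log2 level of the 37 genes the SD was 2.19 times as large after BC@Z-M + L as in control tumors. For markers of pericytes and smooth muscle it was 2.24 times as large and for fibroblast markers 1.65 times. Leukocyte and macrophage markers had 1.01 times and tumor epithelium markers 0.794 times the control SD. Adipocyte and erythroid genes also had a smaller SD after BC@Z-M + L. A wide spread was not limited to vessel wall and stromal markers, as hypoxia-induced genes had 2.13 times and VEGF family genes 2.85 times the control SD. The low tumor epithelium ratio held for mean log2 levels. On summed FPKM these markers had 2.55 times the control SD, and the 37 genes 2.26 times. Most of the 37 genes varied together, so their counts are not independent. These comparisons of spreads were chosen after the values were seen and have no test. Without BC@Z-M + L replicate 4, 24 of the 37 had the larger SD after BC@Z-M + L, beside 46.7% of all genes. With any other library left out the count lay between 28 and 36. The 28 came without BC@Z-M + L replicate 5, beside 48.9% of all genes, and the 36 without control replicate 2, beside 71.3%.

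**Figure D3:**
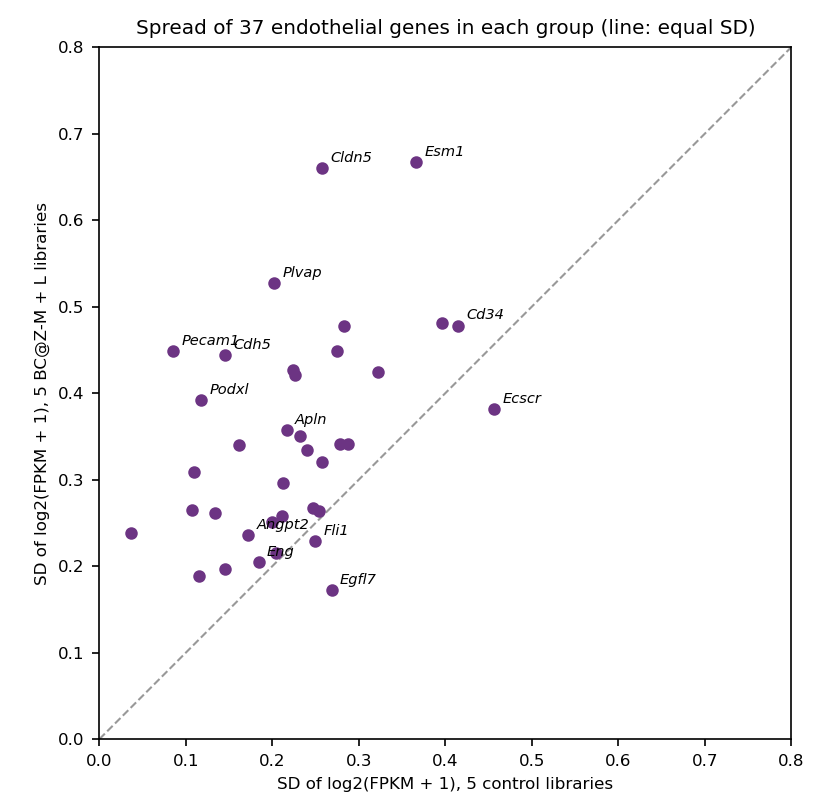
SD of log2(FPKM + 1) of each endothelial gene in the 5 BC@Z-M + L libraries (vertical) against the 5 control libraries (horizontal), with the line of equal SD. Points above the line, 34 of 37, varied more after BC@Z-M + L; Esm1 and Cldn5 had the largest SD there, 0.67 and 0.66.

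The direction of the list depended on single libraries. With BC@Z-M + L replicate 1 left out 14 of the 37 genes were higher after BC@Z-M + L, beside 43.9% of all genes. Leaving out replicate 2 also gave 14, beside 47.1%. With BC@Z-M + L replicate 4 left out 32 were higher, beside 44.3%. The difference in the mean over the 37 genes was then 0.13, against −0.02 without replicate 1 and −0.02 without replicate 2. Also without replicate 4, 5 endothelial genes had an unadjusted limma p under 0.05, all of them higher after BC@Z-M + L (Aplnr, Pecam1, Plvap, Podxl and Tie1), beside 3.17% of all genes, and the lowest adjusted p was 0.486. Pecam1 and Podxl then had every BC@Z-M + L library above every control library, beside 1.05% of all genes. For both, replicate 4 was the only BC@Z-M + L library not above all control libraries, so this followed from leaving it out. With limma's array weights, which give libraries far from their group less weight, 3 endothelial genes had an unadjusted p under 0.05. Podxl and Icam2 were higher, beside 4.05% of all genes, and Angpt2 was lower, beside 6.46%, and their adjusted p values lay between 0.436 and 0.461.

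Among the junction and surface genes, 7 of 10 had a higher mean after BC@Z-M + L and 3 a lower one. Pecam1 was at 15.6, 16.4, 11.8, 6.996 and 12.97 FPKM in BC@Z-M + L replicates 1 to 5, against 11.7, 11.3, 10.6, 10.0 and 11.6 FPKM in control replicates 1 to 5. The control libraries lay close together, and BC@Z-M + L libraries stood on both sides of them. The log2 difference was 0.14 (SE 0.18, exact permutation p = 0.516, limma adjusted p = 0.997). Replicate 4 was the only BC@Z-M + L library below all control libraries, and the other 4 were above them. Leaving it out therefore separates the groups by construction. The difference was then 0.33, with the smallest exact permutation p that 4 against 5 libraries can give (0.00794). With each library left out in turn the difference ran from 0.05 to 0.33, and the exact permutation p reached 0.81.
Cdh5 was at 15.1, 15.9, 11.8, 7.30 and 8.84 FPKM after BC@Z-M + L, against 9.41, 9.44, 11.5, 10.9 and 11.9 FPKM in control tumors. Here 2 BC@Z-M + L libraries were above and 2 below all control libraries. Plvap, which forms the diaphragms of fenestrae and caveolae, was at 39.5, 39.7, 26.6, 15.7 and 29.2 FPKM after BC@Z-M + L, against 20.9, 24.7, 30.0, 29.1 and 24.9 FPKM in control tumors. Cldn5, the main endothelial tight junction claudin, was at 10.6, 8.46, 7.67, 2.52 and 6.48 FPKM after BC@Z-M + L, against 6.38, 9.12, 8.30, 5.50 and 6.76 FPKM in control tumors. Its lowest library, BC@Z-M + L replicate 4, was the same as for Pecam1, Cdh5 and Plvap.

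Podxl, an anionic sialomucin of the luminal membrane that some carcinoma cells and podocytes also express, was the member with the lowest p. It was at 20.2, 18.3, 20.04, 15.4 and 33.0 FPKM in BC@Z-M + L replicates 1 to 5, against 17.1, 13.996, 16.9, 15.1 and 14.8 FPKM in control replicates 1 to 5. Of the BC@Z-M + L libraries 4 exceeded all control libraries and replicate 4 lay among them. The log2 difference was 0.39 (SE 0.17, limma p = 0.0381, adjusted p = 0.997, exact permutation p = 0.0317 two-sided), and in edgeR it was 0.49 (p = 0.0313, adjusted p = 0.985). Without BC@Z-M + L replicate 5 the difference was 0.23 (exact permutation p = 0.0635). Podxl was also the member least like the rest, with r = −0.12 with the mean of the other 36 over the 10 libraries. Its highest library, BC@Z-M + L replicate 5, had the highest summed level of 7 hypoxia-induced genes (2224 FPKM, against 1073 to 1607 FPKM in the other BC@Z-M + L libraries and 1242 to 1651 FPKM in control libraries), and its r with the mean of those genes was 0.73. Their part in the Podxl difference was not tested.

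Of the other surface genes, Icam2, an adhesion molecule that leukocytes bind, had a log2 difference of 0.17. Esam, a junction molecule, differed by 0.06, Emcn, a sialomucin of veins and capillaries, by 0.04, Ecscr by −0.05 and Cd34, a sialomucin shared with blood progenitors, by −0.10. Their exact permutation p values ran from 0.302 (Icam2) to 0.825. Icam2 ran from 1.47 to 3.12 FPKM after BC@Z-M + L, against 1.55 to 2.89 FPKM in control tumors. Esam ran from 4.33 to 8.31 FPKM after BC@Z-M + L, against 4.55 to 7.28 FPKM in control tumors, and the lowest library of both was BC@Z-M + L replicate 4. Cd34 averaged 5.12 ± 2.10 FPKM after BC@Z-M + L and 5.46 ± 1.80 FPKM in control tumors (SD, n = 5 each). Emcn averaged 3.18 ± 0.910 FPKM after BC@Z-M + L and 3.05 ± 0.743 FPKM in control tumors. In Ecscr the highest library was a control one, replicate 2, and the values were 9.57 to 20.4 FPKM after BC@Z-M + L, against 10.3 to 24.5 FPKM in control tumors. Pecam1, Icam2, Cd34 and Emcn are also made by some blood cells, as are Fli1, Cd93, S1pr1 and Vwf. The mean over the 29 members outside those 8 differed by 0.04, as did the mean over all 37.

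**Figure D4:**
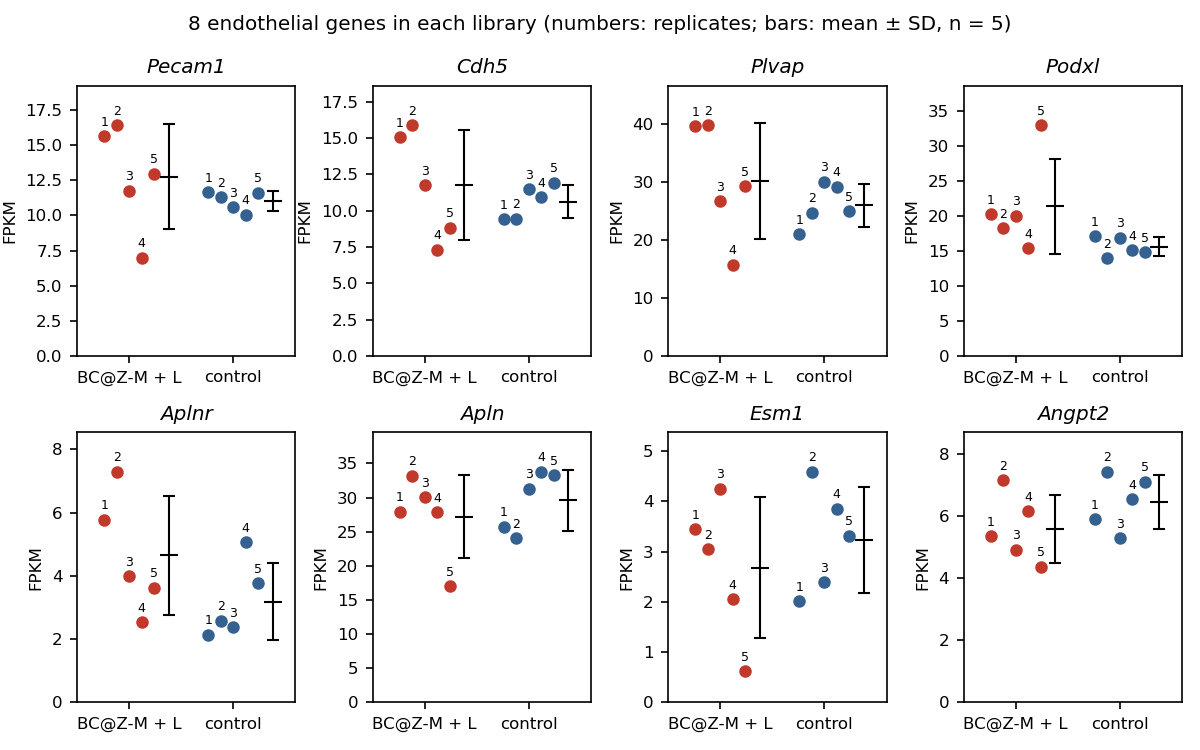
FPKM of 8 endothelial genes in each BC@Z-M + L library (left) and control library (right); numbers are replicates, and bars to the right of the points are mean ± SD (n = 5 each). Pecam1 ran from 6.996 to 16.4 FPKM after BC@Z-M + L and from 10.0 to 11.7 FPKM in control tumors, and Podxl reached 33.0 FPKM in BC@Z-M + L replicate 5.

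In the angiopoietin-TIE axis, the receptor genes were higher on the mean and the ligand gene lower, none past the test. Tek, which encodes the receptor TIE2, averaged 1.21 ± 0.379 FPKM after BC@Z-M + L and 1.14 ± 0.319 FPKM in control tumors (SD, n = 5 each). Tie1, its partner receptor, was at 5.30, 5.84, 4.17, 2.72 and 4.18 FPKM after BC@Z-M + L, against 3.34, 3.42, 3.84, 3.79 and 4.76 FPKM in control tumors. The groups overlapped, and replicates 1 and 2 were again the highest of the BC@Z-M + L group. Angpt2, the ligand that activated endothelium stores and releases, was at 5.35, 7.17, 4.92, 6.17 and 4.38 FPKM after BC@Z-M + L, against 5.91, 7.44, 5.30, 6.56 and 7.12 FPKM in control tumors, a log2 difference of −0.19 (exact permutation p = 0.206, limma adjusted p = 0.997). Ptprb, the phosphatase VE-PTP that acts on TIE2, averaged 0.767 ± 0.305 FPKM after BC@Z-M + L and 0.685 ± 0.233 FPKM in control tumors.

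All 5 transcription factor genes had a slightly higher mean after BC@Z-M + L, with log2 differences from 0.01 to 0.14. Erg averaged 1.13 ± 0.269 FPKM after BC@Z-M + L and 1.12 ± 0.166 FPKM in control tumors (SD, n = 5 each). Fli1, which blood cells also use, averaged 2.32 ± 0.546 FPKM after BC@Z-M + L and 2.30 ± 0.588 FPKM in control tumors. Sox18 was at 10.5, 12.1, 6.47, 5.56 and 7.18 FPKM after BC@Z-M + L, against 5.37, 8.92, 6.02, 6.72 and 9.72 FPKM in control tumors. Sox17 was at 0.909, 0.787, 0.628, 0.244 and 0.529 FPKM after BC@Z-M + L, from 83 to 369 estimated counts, against 0.446, 0.532, 0.447, 0.461 and 0.5002 FPKM in control tumors, from 131 to 184 estimated counts. Its control libraries lay close together, with 3 BC@Z-M + L libraries above and 1 below them. Sox7 averaged 1.37 ± 0.418 FPKM after BC@Z-M + L and 1.30 ± 0.214 FPKM in control tumors, a difference of 0.03 on the log2 scale.

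Of the 8 receptor genes 6 were higher on the mean and 2 lower. Aplnr, the apelin receptor, had the largest difference of all members and was at 5.78, 7.29, 3.99, 2.53 and 3.62 FPKM after BC@Z-M + L, against 2.14, 2.59, 2.38, 5.06 and 3.76 FPKM in control tumors. Replicates 1 and 2 of BC@Z-M + L were above every control library, and the rest lay among them. The log2 difference was 0.41 (SE 0.24, limma adjusted p = 0.997, exact permutation p = 0.167). Eng, the endoglin co-receptor for BMP9 that mesenchymal cells can also carry, was the most abundant member at 42.1, 33.6, 37.9, 39.6 and 29.2 FPKM after BC@Z-M + L, against 27.7, 29.0, 33.5, 38.7 and 32.2 FPKM in control tumors. It did not share the low value of BC@Z-M + L replicate 4 that most members had. S1pr1, the sphingosine 1-phosphate receptor that steadies junctions, averaged 6.63 ± 1.54 FPKM after BC@Z-M + L and 6.28 ± 0.559 FPKM in control tumors. For Robo4, Ramp2 (the partner of the adrenomedullin receptor) and Cd93 the log2 differences were 0.03, 0.02 and 0.00. Robo4, a guidance receptor that holds the barrier, averaged 1.89 ± 0.443 FPKM after BC@Z-M + L and 1.83 ± 0.399 FPKM in control tumors. Ramp2 ran from 1.05 to 3.70 FPKM after BC@Z-M + L, against 1.46 to 2.64 FPKM in control tumors. The range of Cd93 was 3.66 to 9.27 FPKM after BC@Z-M + L, against 4.48 to 8.13 FPKM in control tumors, and its lowest library was BC@Z-M + L replicate 5. Adgrl4 differed by −0.08 and Clec14a, a C-type lectin that binds multimerin-2, by −0.09. Clec14a was at 0.585 to 1.69 FPKM after BC@Z-M + L, against 0.954 to 2.004 FPKM in control tumors, and its highest library was control replicate 2.

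The secreted and matrix genes had 3 of 5 members lower on the mean. Apln, the ligand of Aplnr, was at 27.9, 33.2, 30.0, 27.8 and 17.0 FPKM after BC@Z-M + L, against 25.8, 24.05, 31.3, 33.8 and 33.3 FPKM in control tumors. Its difference of −0.14 rested on BC@Z-M + L replicate 5 and was 0.02 without it. Esm1, the tip cell proteoglycan endocan, was at 3.44, 3.05, 4.25, 2.05 and 0.618 FPKM after BC@Z-M + L, against 2.02, 4.59, 2.39, 3.86 and 3.32 FPKM in control tumors. The log2 difference was −0.27 (SE 0.29, limma adjusted p = 0.997). Its lowest library was BC@Z-M + L replicate 5, with 83 estimated counts, and the difference was −0.0024 when that library was left out. Egfl7, a secreted matrix protein, averaged 9.36 ± 1.27 FPKM after BC@Z-M + L and 10.4 ± 2.24 FPKM in control tumors. Mmrn2, which encodes multimerin-2, averaged 2.42 ± 0.777 FPKM after BC@Z-M + L and 2.09 ± 0.609 FPKM in control tumors. Vwf, the von Willebrand factor of larger vessels, was at 0.147 to 0.649 FPKM after BC@Z-M + L, against 0.263 to 0.656 FPKM in control tumors.

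In the Notch pair, Dll4 was at 5.75, 5.77, 8.42, 4.75 and 3.89 FPKM after BC@Z-M + L, against 4.12, 6.16, 3.90, 5.44 and 5.23 FPKM in control tumors. Its highest library was BC@Z-M + L replicate 3, unlike the pattern of most members. Notch4, an endothelial Notch receptor, averaged 2.08 ± 0.547 FPKM after BC@Z-M + L and 1.85 ± 0.478 FPKM in control tumors. Among the signaling genes, Nos3, the endothelial nitric oxide synthase, averaged 1.98 ± 0.535 FPKM after BC@Z-M + L and 2.08 ± 0.228 FPKM in control tumors. Rasip1, which acts with Rap1 in vessel lumens, and Myct1 had log2 differences of 0.03 and 0.10. Rasip1 ran from 0.933 to 3.06 FPKM after BC@Z-M + L, against 1.33 to 2.52 FPKM in control tumors. Myct1 ran from 0.568 to 2.18 FPKM after BC@Z-M + L, against 0.764 to 1.66 FPKM in control tumors, with its lowest library in BC@Z-M + L replicate 5. The 4 tip or sprouting genes (Apln, Esm1, Angpt2 and Dll4) had a median difference of −0.16, with 3 lower and 1 higher. Their mean log2(FPKM + 1) was 3.11, 3.23, 3.29, 2.96 and 2.40 in BC@Z-M + L replicates 1 to 5, against 2.87, 3.26, 2.93, 3.25 and 3.22 in control replicates 1 to 5, so BC@Z-M + L replicate 5 stood below all others.

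Ratios of members were compared so that a common share of endothelial RNA in a library would cancel. This holds only where both genes follow that share. Apln, Angpt2 and Vwf had r of 0.38, 0.27 and 0.43 with the mean of the other members over the 10 libraries. Their partners Aplnr, Tek and Pecam1 had 0.78, 0.91 and 0.73, so the share need not cancel in these 3 ratios. Of 6 ratios none had an adjusted p under 0.05 by two-sided exact permutation tests with Benjamini-Hochberg adjustment over the 6. Apln to Aplnr was 4.83, 4.56, 7.53, 10.99 and 4.71 after BC@Z-M + L, against 12.0, 9.29, 13.2, 6.67 and 8.83 in control tumors. It lay below all control libraries in 3 of the 5 BC@Z-M + L libraries, and its log2 difference was −0.65 (exact permutation p = 0.0714, adjusted p = 0.429). BC@Z-M + L replicate 4 had the highest ratio of its group, so leaving it out had to widen the difference. Without it the difference was −0.86 (exact permutation p = 0.0238, not adjusted), the widest with any 1 library left out. Esm1 to Cdh5 differed by −0.52 on the log2 scale and Angpt2 to Tek by −0.28 (adjusted p = 0.452 for each, exact permutation tests). Without BC@Z-M + L replicate 5 the Esm1 to Cdh5 difference was −0.18. Plvap to Cldn5 differed by 0.28, Vwf to Pecam1 by −0.17 and Dll4 to Notch4 by 0.01 (adjusted p = 0.452, 0.552 and 0.952, exact permutation tests).

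Most members varied together from library to library. The r of a member with the mean of the others over the 10 libraries had a median of 0.75, from −0.12 (Podxl) to 0.97 (Esam), and 23 of 37 had an r of at least 0.7. Of the 12768 other genes with a mean of at least 1 FPKM, 3.96% had such an r with the members' mean. Next after Esam came Emcn, Tek, S1pr1, Rasip1, Cdh5 and Myct1, with r between 0.89 and 0.94 with the mean of the others. Podxl, Angpt2, Eng, Sox7, Apln, Ptprb and Vwf had an r below 0.5. Within the BC@Z-M + L libraries alone Cdh5 and Pecam1 had r of 0.997 and 0.86, and within control libraries alone 0.24 and −0.37. Their SD of log2(FPKM + 1) in control libraries was 0.15 and 0.09, and its part in these r was not tested. These r describe 10 libraries that share their groups, and genes are not independent replicates. The 10 genes outside the list most like its mean were Ldb2, which encodes a LIM-domain-binding cofactor, Rtl8c, Rps4l, Pdlim4, Dcn (decorin), Clmp, C1s1 (a complement C1s gene), Sulf2, Thy1 and Tspan7, with r between 0.94 and 0.98.

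Markers of other stromal cells moved with the endothelial level. Over the 10 libraries the mean of the 37 genes had r = 0.91 and Spearman's rho = 0.82 with the mean of 13 pericyte and smooth muscle genes, and r = 0.87 and rho = 0.83 with that of 7 fibroblast genes. Without the 2 libraries farthest from the median endothelial level (BC@Z-M + L replicate 4 and control replicate 1) r was 0.87 for each. The summed pericyte and smooth muscle level ran from 60.4 to 173 FPKM in BC@Z-M + L libraries, against 76.9 to 127 FPKM in control libraries. Of its 10 genes averaging 1 FPKM or more, 8 had a higher mean after BC@Z-M + L and 2 a lower one, and none passed the test. Acta2 (smooth muscle actin) averaged 46.7 ± 25.5 FPKM after BC@Z-M + L and 34.8 ± 9.16 FPKM in control tumors (SD, n = 5 each). Mcam averaged 24.2 ± 5.88 FPKM after BC@Z-M + L and 26.9 ± 4.56 FPKM in control tumors. The summed fibroblast level ran from 192 to 1130 FPKM in BC@Z-M + L libraries, against 272 to 772 FPKM in control libraries, with 6 of 7 genes higher on the mean and none past the test. The summed level of 7 tumor epithelium genes ran from 1575 to 2634 FPKM in BC@Z-M + L libraries, against 1809 to 2256 FPKM in control libraries, and its r with the endothelial mean was −0.72. On the mean of log2 values, which the abundant Krt8 and Krt18 weigh on less, that r was −0.30. The part of the tissue sampled in the endothelial differences was not tested.

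**Figure D5:**
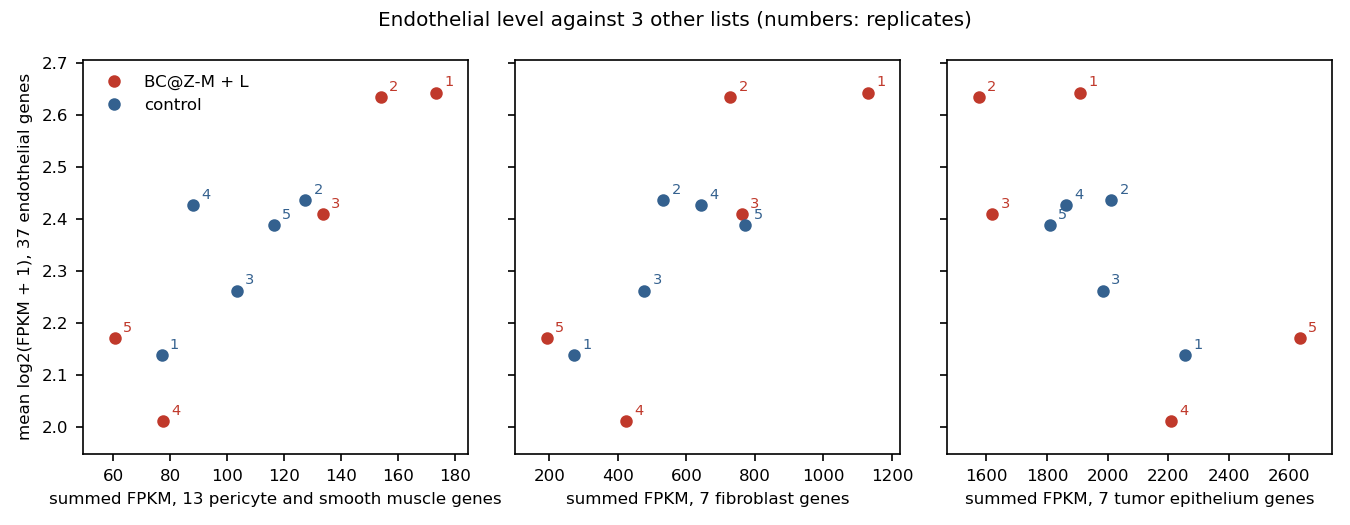
Mean log2(FPKM + 1) of the 37 endothelial genes (vertical) against the summed FPKM of pericyte and smooth muscle, fibroblast and tumor epithelium genes (horizontal) in 5 BC@Z-M + L and 5 control libraries; numbers are replicates. The endothelial level was higher where the first 2 lists were higher (r = 0.88 and 0.82) and lower where the third was higher (r = −0.72), and BC@Z-M + L replicates 1 and 2 lie at the top of every panel.

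Other tissues were present to uneven degrees. Keratinocyte genes summed to 3.34 to 275 FPKM in BC@Z-M + L libraries, highest in replicate 2, against 4.11 to 48.3 FPKM in control libraries. Skeletal muscle genes summed to 2.99 to 79.6 FPKM in BC@Z-M + L libraries, against 4.26 to 42.9 FPKM in control libraries. Adipocyte genes summed to 10.3 to 32.2 FPKM in BC@Z-M + L libraries, against 6.77 to 129 FPKM in control libraries, highest in control replicate 4. That was also the control library with the most Aplnr. Over the 10 libraries the r of Aplnr with the mean log2 value of the adipocyte genes was 0.29, and a link was not tested. Leukocyte and macrophage genes summed to 117 to 218 FPKM in BC@Z-M + L libraries, against 113 to 192 FPKM in control libraries, and the r of their mean log2 value with the endothelial mean was 0.21, while that of their summed FPKM was 0.04.

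Among further vessel genes, those of the VEGF family all had a higher mean after BC@Z-M + L, without passing the test. Of 10 genes 9 had a mean of at least 1 FPKM, with a median log2 difference of 0.14. All 9 were higher on the mean, beside 46.2% of all genes. Vegfa averaged 42.0 ± 18.8 FPKM after BC@Z-M + L and 32.4 ± 4.28 FPKM in control tumors (SD, n = 5 each). Its log2 difference was 0.26 with all libraries and 0.05 without BC@Z-M + L replicate 2, a setting chosen after the values were seen. Pgf, a VEGF family ligand, was at 12.1, 37.8, 17.2, 6.72 and 60.4 FPKM after BC@Z-M + L, against 17.8, 13.5, 23.2, 12.6 and 16.99 FPKM in control tumors. BC@Z-M + L replicates 2 and 5 were above all control libraries and replicates 1 and 4 were below them. Without replicate 5, a setting chosen after the values were seen, the log2 difference of Pgf was −0.09, against 0.29 with all libraries. Of the other angiopoietin and Notch genes all 7 at that level were higher on the mean, beside 46.2% of all genes, with a median of 0.15 and none past the test. Angptl4 averaged 14.5 ± 6.26 FPKM after BC@Z-M + L and 11.3 ± 3.40 FPKM in control tumors. The arterial and venous genes had 5 of 10 at that level, all higher on the mean, beside 46.2% of all genes, with a median of 0.30. Of the 5, 2 had an unadjusted limma p under 0.05 and a higher mean, beside 0.797% of all genes. Icam1, a leukocyte adhesion molecule of activated endothelium and other cells, averaged 3.44 ± 0.788 FPKM after BC@Z-M + L and 2.59 ± 0.318 FPKM in control tumors (log2 difference 0.30, exact permutation p = 0.0238, limma adjusted p = 0.997). Gja4, the arterial connexin 37, averaged 2.81 ± 0.796 FPKM after BC@Z-M + L and 1.99 ± 0.367 FPKM in control tumors (log2 difference 0.33, exact permutation p = 0.0556, limma adjusted p = 0.997).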

How the data were processed

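RNA of 5 BC@Z-M + L and 5 control tumors was sequenced. The authors aligned reads with HISAT2 and quantified them with StringTie; FPKM values, normalised for transcript length and library size, and estimated counts were deposited per gene and library. The submitters' processing notes name FastQC, cutadapt 1.9 and GRCm38, whereas the methods name Ensembl v107, so no gene coordinates were taken from the table, and those of promoters are RefSeq's. How the estimated counts were made is not given in the sources used here. They are whole numbers as deposited.

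In R 4.3.3, limma 3.58.1 (trend on, no replicate block) compared log2(FPKM + 1) between groups for the 12802 genes averaging 1 FPKM or more, with Benjamini-Hochberg adjustment. Fold changes on this scale understate those of low genes. edgeR 4.0.16 and DESeq2 1.42.0 on the estimated counts were alternatives. Exact permutation tests used all 252 splits of 10 libraries, with a smallest p of 0.00794. Ratios used a pseudocount of 0.1. Fits were tested on simulated data. Alternatives changed the pseudocount, filter, scaling, weights, block and libraries. Leaving out libraries for the spread was added after seeing the data. Members, lists and the rule for named genes (all members, the 2 most abundant and 2 most changed genes of a list, the 10 genes most like the members) were chosen with earlier results of these data known. Values of some genes that the rule names are not reported here, while counts over lists cover them. Sequencing depth limits the lowest genes, and no interval was computed for single libraries. Control libraries are named control in the labels and BC@Z-M + L libraries therapy.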

Additional observations from a re-analysis of the deposited data

Results flagged for a closer look

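Of 88 groups of 5 libraries looked at, 1 had a library far from the other 4. Apln was at 17.0 FPKM in BC@Z-M + L replicate 5. On the scale of log2(FPKM + 1) its gap to the nearest library made up 0.733 of the group's range, above Dixon's 95% critical value of 0.71 for 5 libraries. The rule was applied to genes on that scale only, not to FPKM, so the flag holds for that scale. Chance gives about 1 such group in 20.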

How the results depend on the processing

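No endothelial gene had an adjusted p under 0.05 under any setting tried. The number of genes called in all was 6 in DESeq2 and 0 in limma, edgeR and the other settings; with the replicate block, the number of endothelial genes with an adjusted p under 0.05 was 0 and with an unadjusted p under 0.05 it was 1. Replicate numbers did not pair the libraries (r of same-numbered deviations −0.28, 0.03, 0.003, 0.53 and −0.10 for numbers 1 to 5), and 1 of 5 numbers matched its own best. With array weights 3 endothelial genes had an unadjusted p under 0.05. Leaving out 1 library gave 0 (without control replicate 2, among others) to 5 (without BC@Z-M + L replicate 4) such genes, 12 (without BC@Z-M + L replicate 2) to 29 (without replicate 4) of the 34 fitted genes higher on the mean, and 0 to 2 genes (without replicate 4) whose groups did not overlap. The log2 ratio of Apln to Aplnr lay between −0.86 and −0.55 and that of Dll4 to Notch4 between −0.074 and 0.092.

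Of 256 values of members under other scalings or tools, 5 turned sign, all near 0: Cldn5 in edgeR (0.0056) and DESeq2 (0.0033), Cd93 with a pseudocount of 0.1 (−0.0024), and Vwf with that pseudocount (−0.018) and after quantile normalization (−0.015). Of 370 values with 1 library left out, 60 turned sign, in 22 members, and 15 members held their sign throughout. The lowest and highest log2 differences with 1 library left out were −0.027 and 0.23 for Cdh5, −0.25 and 0.18 for Cldn5, −0.028 and 0.17 for Esam, −0.27 and 0.030 for Cd34, −0.079 and 0.17 for Emcn, −0.18 and 0.12 for Ecscr, −0.018 and 0.12 for Tek, −0.022 and 0.15 for Ptprb, −0.046 and 0.078 for Erg, −0.074 and 0.10 for Fli1, −0.055 and 0.13 for Sox7, −0.050 and 0.096 for Robo4, −0.030 and 0.16 for S1pr1, −0.13 and 0.17 for Ramp2, −0.18 and 0.012 for Adgrl4, −0.12 and 0.16 for Cd93, −0.18 and 0.015 for Clec14a, −0.045 and 0.086 for Vwf, −0.22 and 0.015 for Apln, −0.13 and 0.025 for Nos3, −0.065 and 0.20 for Rasip1, and −0.012 and 0.24 for Myct1. The cause was not tested beyond the libraries left out. With 5 libraries a group, the 95% interval of every fitted endothelial gene except Podxl included 0.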

Other observations

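Across the 10 libraries the mean of log2 values over genes of hemostasis, by which endothelium governs clotting, had r = 0.93 and rho = 0.89 with the endothelial mean, while single genes differed, with r = 0.84 for Thbs1, 0.45 for Plat and −0.29 for Procr. Thbs1, the angiogenesis inhibitor thrombospondin-1, averaged 49.2 ± 23.5 FPKM after BC@Z-M + L and 37.2 ± 8.61 FPKM in control tumors (SD, n = 5 each). Procr, the endothelial protein C receptor that other cells can also carry, averaged 20.9 ± 6.15 FPKM after BC@Z-M + L and 25.1 ± 4.76 FPKM in control tumors. Of 8 hemostasis genes with a mean of at least 1 FPKM 6 were higher on the mean and 2 lower, and none had an unadjusted limma p under 0.05. Of 8 other endothelial regulators 6 were higher and 2 lower. Klf2, a transcription factor that blood flow induces, averaged 13.1 ± 2.96 FPKM after BC@Z-M + L and 15.4 ± 3.31 FPKM in control tumors.

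Of the 3 lymphatic genes with a mean of at least 1 FPKM, Lyve1, a hyaluronan receptor of lymphatic vessels that some macrophages share, averaged 1.79 ± 1.33 FPKM after BC@Z-M + L and 3.20 ± 1.18 FPKM in control tumors (log2 difference −0.67, exact permutation p = 0.0556, limma adjusted p = 0.997), while Pdpn differed by 0.06 and Ccl21a by 0.37. Erythroid genes summed to 70.5 to 164 FPKM in BC@Z-M + L libraries, against 104 to 439 FPKM in control libraries. The 439 FPKM was control replicate 4, and the other control libraries were at 104 to 202 FPKM. Without that library, a setting chosen after the values were seen, the log2 difference was −0.15 for Hba-a1 and −0.36 for Hbb-bs. With all libraries it was −0.48 and −0.66. Platelet and megakaryocyte genes summed to 8.89 to 28.5 FPKM in BC@Z-M + L libraries, against 15.4 to 42.5 FPKM in control libraries. Proliferation genes summed to 150 to 267 FPKM in BC@Z-M + L libraries, against 169 to 239 FPKM in control libraries, and the r of this sum with the endothelial mean was −0.36. No gene of these lists passed the test.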
